A study of Mus musculus with 35 samples.

Results

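Cd5l, also named AIM (apoptosis inhibitor of macrophage), is described here as 1 of the 14174 genes of a deposited table of aortic RNA levels. It was chosen on its measured levels and on its relation to macrophage genes in these libraries, so its own values are a description and carry no test. Total RNA was sequenced from 35 mouse aortas in 12 groups. The mice were C57BL/6 of 3 genotypes: wild type (WT), EKO, which lacks apolipoprotein E, and EKO/hA-I, which lacks it too and overexpresses human apolipoprotein A-I. From 8 weeks of age they were given either standard chow or Western-type food (WD) during 6 or 22 weeks, so that aortas were taken at 14 or 30 weeks of age. Each of 11 groups held 3 libraries, and EKO/hA-I on chow for 6 weeks held 2. The promoter that drives the human transgene is not given in the sources used here, and the human transcript was not analysed here. Vessels were perfused, cut out from the root down to the iliac bifurcation and cleared of surrounding fat, per the labels, so the whole wall and what remained attached to it were measured.

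The protein is a member of the scavenger receptor cysteine-rich (SRCR) family that macrophages secrete, with resident macrophages of liver and spleen as well-known sources. In macrophages its gene is known to be activated by the liver X receptors (LXR), which sense oxysterols. In blood it is carried by pentameric IgM. It prolongs the survival of lipid-loaded macrophages, and it can enter adipocytes through CD36 and inhibit fatty acid synthase there. In arteries of mice prone to atherosclerosis it is known as a product of lesion macrophages.

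Mouse Cd5l (Entrez gene 11801) lies on the plus strand of chromosome 3, from 87357881 to 87371074 in GRCm38.p6, the build of the RefSeq table used here. The 250 bases before its start site, chr3:87357631-87357880, are shown because Spi1, which encodes the macrophage transcription factor PU.1, is among the regulators measured below. Capitals mark TTCCTC, the complement of GAGGAA, a core of PU.1 sites; it begins 66 bases before the start site.

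Cd5l upstream: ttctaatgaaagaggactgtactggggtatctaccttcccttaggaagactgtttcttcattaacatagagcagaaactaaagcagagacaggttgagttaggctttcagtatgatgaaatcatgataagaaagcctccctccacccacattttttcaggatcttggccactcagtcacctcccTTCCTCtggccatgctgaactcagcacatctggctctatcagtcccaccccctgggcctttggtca

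Over all RefSeq promoter windows of 300 bases (250 before and 50 after a start site), 9289 of 32851, or 28.3%, held GAGGAA on either strand. The DR4 element of LXR was searched as a sequence pattern on both strands, with no mismatch allowed beyond its variable letters. It was not in the Cd5l window, against 0.0822% of all windows that held it. Such matches describe letters in a window and are not evidence of binding.

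Values are the authors' normalised signal, in units in which each library adds to between 907500 and 1137700. The value of 1 read was inferred from the smallest values, which gave 6850000 to 25330000 reads per library (median 15050000), and Cd5l rested on between 6 reads (WT chow 22 weeks, replicate 3) and 40335 reads (EKO WD 22 weeks, replicate 3). Apoe, the deleted gene, was between 415.6 and 1276 in the 12 WT libraries and between 5.37 and 29.7 in the other 23. In WT WD 22 weeks replicate 3 the title gave WT while a genotype tag gave EKO; its Apoe level was 540.4 and it was kept as WT. Y-linked transcripts were missing from 12 libraries. In the 10 groups with 1 such library, it had the lowest Cd5l of its group in 5, the highest in 3 and the middle value in 2. In EKO chow 22 weeks they were missing from 2 of 3 libraries, those with the middle and highest Cd5l. Every EKO/hA-I chow 22-week library had them, so these groups differ in this respect, and its part in their Cd5l difference was not tested. Nothing in the sources used here ties replicates to further preparations, so p-values below measure only the spread between these libraries.

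In WT aortas Cd5l was low in most libraries. On chow the values were 2.48, 2.05 and 1.19 at 6 weeks and 2.10, 5.09 and 0.385 at 22 weeks. On WD they were 1.21, 1.33 and 47.7 at 6 weeks and 2.69, 39.9 and 8.15 at 22 weeks. Thus 10 of the 12 WT libraries were under 10, and 2 libraries on WD stood apart from their group mates. Replicate 3 of the 6-week WD group was also the highest of its group for the lipid-associated macrophage transcripts Gpnmb, at 200.5 against 20.3 and 13.2, and Trem2, at 11.6 against 1.97 and 1.16. Replicate 2 of the 22-week WD group was likewise the highest for Gpnmb, at 136 against 45.7 and 31.4, and for Trem2, at 11.02 against 2.29 and 4.67.

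Every EKO library had more Cd5l than 10 of the 12 WT libraries, and the level was higher on WD than on chow and higher at 22 than at 6 weeks. Chow gave 12.5, 11.1 and 12.9 at 6 weeks, the tightest group of all, and 334, 362 and 246 at 22 weeks. WD gave 216, 66.6 and 156 at 6 weeks and 1252, 1349 and 2155 at 22 weeks. No 2 of the 4 EKO groups overlapped; the nearest libraries of different groups were 246 on chow at 22 weeks and 216 on WD at 6 weeks. The group means were 12.2 ± 0.939, 314 ± 60.6, 146 ± 75.2 and 1585 ± 496 (SD, n = 3 each) for chow 6, chow 22, WD 6 and WD 22 weeks.

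EKO/hA-I aortas had Cd5l levels nearer to those of WT than to those of EKO, with wide spread inside the groups. WD at 6 weeks was the exception on the log2(value + 1) scale. There the EKO/hA-I mean differed by -1.71 from EKO and by 2.67 from WT. Chow gave 1.95 and 8.89 at 6 weeks and 0.701, 28.9 and 8.20 at 22 weeks. WD gave 87.7, 19.98 and 34.1 at 6 weeks and 3.57, 41.3 and 34.8 at 22 weeks. The highest of these 11 libraries was an animal on WD for 6 weeks, and none reached 100, a level that 8 of 12 EKO libraries exceeded. Within the 22-week chow group the highest value was 41.2 times the lowest, against 1.47 times in EKO on chow for 22 weeks.

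**Figure D1:**
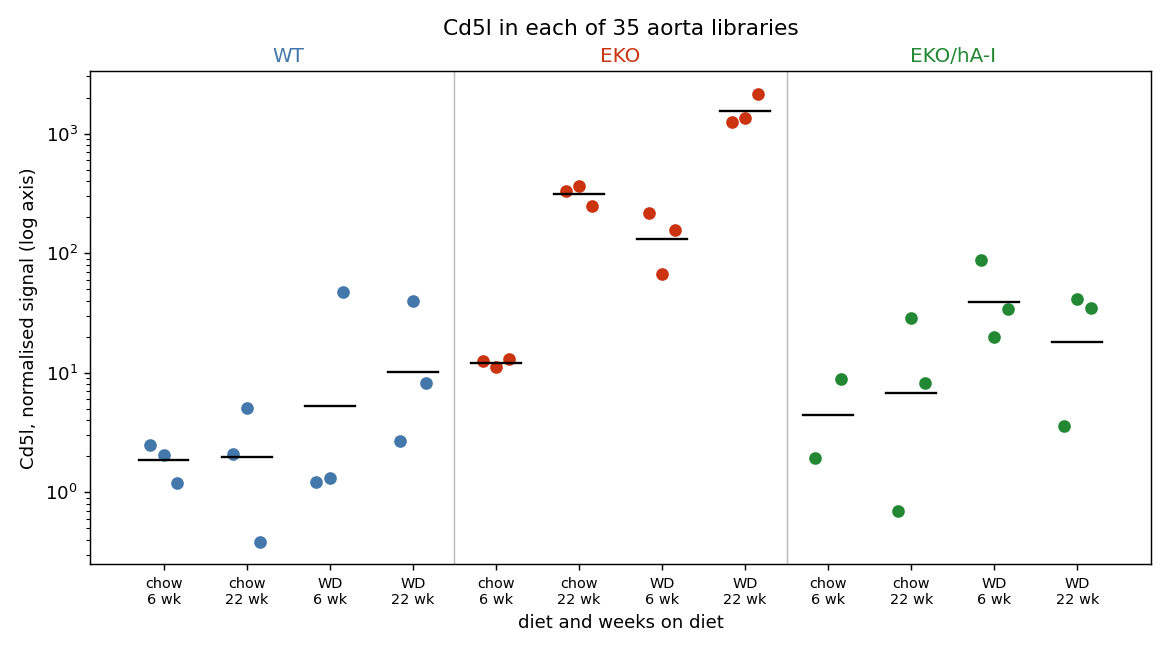
Cd5l in each of the 35 libraries (points, normalised signal, log axis) by genotype, diet and weeks. Bars are group means taken on the log scale and put back into signal, not the means of the signal itself. The 3 EKO WD 22-week libraries, at 1252 to 2155, sit above all others, while 10 of 12 WT libraries are under 10.

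Ordered by the mean of log2(value + 1), EKO WD 22 weeks came first at 10.59, followed by EKO chow 22 weeks at 8.28 and EKO WD 6 weeks at 7.04. Then came EKO/hA-I WD 6 weeks (5.33), EKO/hA-I WD 22 weeks (4.25), EKO chow 6 weeks (3.72) and WT WD 22 weeks (3.48). EKO/hA-I chow 22 weeks (2.96), WT WD 6 weeks (2.66), EKO/hA-I chow 6 weeks (2.43), WT chow 22 weeks (1.57) and WT chow 6 weeks (1.51) closed the order. Of the 11 pairs of neighbours, only the first 2 had libraries that did not overlap. EKO WD 6 weeks and EKO/hA-I WD 6 weeks overlapped but differed by 1.71, against a pooled SD of 0.97. In the other 8 pairs the difference was smaller than the pooled SD.

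Cd5l was higher in EKO than in WT aortas at each diet and time. The difference EKO minus WT on the log2(value + 1) scale was 7.11 ± 1.04 (SE of the difference, n = 3 against 3) on WD at 22 weeks, where the means stood 93.8 times apart. It was 6.71 ± 0.64 on chow at 22 weeks (124 times), 4.39 ± 1.56 on WD at 6 weeks (8.72 times) and 2.21 ± 0.21 on chow at 6 weeks (6.39 times). In each the EKO libraries lay above the WT ones, as 23.7%, 12.3%, 14.1% and 12.6% of the 14157 tested genes did in the same 4 comparisons, in that order. By the size of its positive difference Cd5l ranked first of all tested genes on chow at 22 weeks and on WD at 6 weeks. On WD at 22 weeks it ranked 2, behind Spp1 (osteopontin, a secreted phosphoprotein) at 8.06, and on chow at 6 weeks it ranked 13. Since Cd5l was selected on such levels, these ranks describe how it was picked. They moved with the pseudocount: with 0.1 or 5 in place of 1, rank 13 became 19 or 45, rank 2 became 3 or 2, and both first places became 2 or 1. The 6-week WD value leaned on 1 WT library: without replicate 3 it was 5.86.

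With the human transgene present, Cd5l was lower than in EKO aortas, most of all at 22 weeks. EKO/hA-I minus EKO was -6.34 ± 1.06 on WD at 22 weeks, where the mean was 59.7 times lower and Cd5l ranked first of all tested genes in that direction. On chow at 22 weeks it was -5.32 ± 1.21 (24.9 times lower, rank 2 behind Spp1 at -6.86). Ranges were apart in both, as were those of 22.8% of tested genes in this direction on WD and 22.8% on chow. At 6 weeks the difference was smaller: -1.71 ± 0.79 on WD, with overlapping libraries (5.94% of genes lay apart and lower there), and -1.28 ± 0.87 on chow with 2 against 3 libraries apart (16.5% of genes). EKO/hA-I minus WT gave overlapping libraries at all 4 combinations of diet and time. These contrasts share the EKO groups with those above, and the same libraries enter both.

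Within EKO mice Cd5l differed by diet and by time. WD minus chow was 3.33 ± 0.51 at 6 weeks (rank 1) and 2.31 ± 0.30 at 22 weeks (5.06 times, rank 114), with ranges apart and higher in both, as for 12.7% and 22.9% of tested genes. The difference of 22 minus 6 weeks was 4.56 ± 0.18 on chow (25.7 times, rank 1) and 3.54 ± 0.56 on WD (10.8 times, rank 12), again without overlap, as for 22.3% and 19.5% of tested genes. With pseudocounts of 0.1 or 5, rank 114 became 187 or 61, rank 12 became 34 or 5, and the first place for time on chow became 3 or 1. In WT mice the corresponding 4 contrasts overlapped. In EKO/hA-I mice only WD against chow at 6 weeks (2.90 ± 1.06, 3 against 2 libraries) was free of overlap. The share of all genes apart in that comparison was not counted.

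Cd5l was high where general macrophage transcripts were high. A core macrophage score was taken as the mean log2(value + 1) of 20 genes that macrophages in general carry, among them Adgre1, Csf1r, Cd68, Tyrobp and the C1q chains. Over the 35 libraries its Pearson r with log2 Cd5l was 0.864 (Spearman rho 0.837), and 0.810 without the 2 libraries farthest from the median score. Within genotypes r was 0.705 over 12 WT, 0.895 over 12 EKO and 0.551 over 11 EKO/hA-I libraries, and on deviations from group means it was 0.466. Bulk RNA cannot tell fewer cells of a type from less RNA per cell, and points share the normalisation of their library, so these coefficients describe and do not test.

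The slope was steeper than 1 to 1: log2 Cd5l gained 2.30 for each unit of the score. A score of 16 genes of lipid-loaded TREM2 macrophages (Trem2, Gpnmb, Lgals3, Mmp12, Spp1 and others) followed Cd5l more closely, at r = 0.923 over all libraries (rho 0.898) and 0.751 on deviations from group means. Within genotypes that r was 0.912 in WT, 0.932 in EKO and 0.699 in EKO/hA-I. Without the 2 libraries farthest from the median score of the genotype it was 0.637, 0.920 and 0.545, in that order. The deviations alone gave 0.951 in WT, 0.459 in EKO and 0.614 in EKO/hA-I. Without the 2 libraries farthest from the median deviation of the score these were 0.877 in WT, 0.178 in EKO and 0.386 in EKO/hA-I. A score of 15 genes of resident adventitial macrophages (Lyve1, Folr2, Timd4 and others) reached only 0.523 over the 35 libraries. Known LXR targets gave 0.643.

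**Figure D2:**
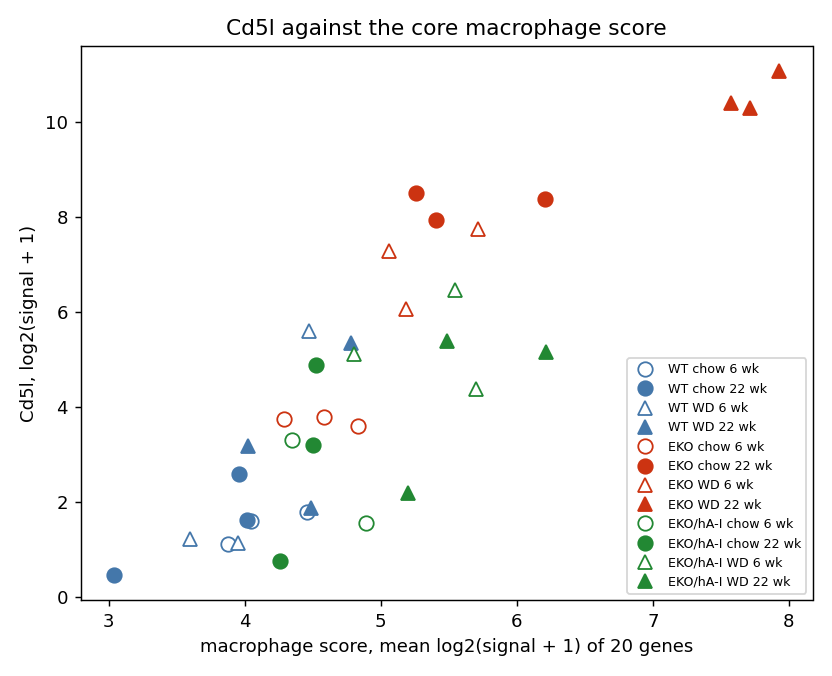
log2(Cd5l + 1) against the core macrophage score (mean log2 of 20 genes), 1 point per library. Points climb together (r = 0.864). The EKO/hA-I WD 22-week libraries lie under the EKO chow 22-week ones, whose mean core score is alike (5.64 and 5.62).

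Subtracting the core score from log2 Cd5l left differences between the groups. This subtraction takes 1 unit of log2 Cd5l per unit of score, while the slope was 2.30 over 35 libraries and 1.86 within EKO. The values below depend on that choice. Cd5l minus score was 2.85 ± 0.29 (SD, n = 3) in EKO WD 22 weeks, 2.65 ± 0.54 in EKO chow 22 weeks and 1.72 ± 0.72 in EKO WD 6 weeks. It was -0.85 ± 0.35 in EKO on chow for 6 weeks and -2.61 ± 0.16 in WT on chow for 6 weeks. The EKO/hA-I groups lay between -0.02 ± 1.16 (WD 6 weeks) and -2.19 ± 1.62 (chow 6 weeks, n = 2). At 1 unit per unit of score, both 22-week EKO groups therefore had about the same Cd5l minus score. The score itself was 7.74 ± 0.18 on WD and 5.62 ± 0.51 on chow. In EKO at 22 weeks WD minus chow was 2.31 for Cd5l and 2.12 for the score, which left 0.19. A steeper slope gives a lower remainder. At 1.86 or 2.30 it would be negative, with WD below chow, so the likeness of these groups depends on the slope taken.

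The human transgene contrast differed in this respect. EKO/hA-I on WD and EKO on chow, both at 22 weeks, had nearly equal core scores, 5.64 ± 0.52 and 5.62 ± 0.51. Yet Cd5l was 26.6 ± 20.2 in the first and 314 ± 60.6 in the second, 11.8 times apart. The libraries of this pair did not overlap, and the share of all genes apart here was not counted. That pair crosses diet as well as genotype, and the score of lipid-loaded macrophages was lower in the first group, 7.17 ± 0.68 against 7.84 ± 0.15. Set against that second score, Cd5l was still 3.36 log2 units lower in EKO/hA-I. On WD at 6 weeks the core scores were again alike (5.35 ± 0.48 in EKO/hA-I, 5.32 ± 0.35 in EKO), and Cd5l was 47.3 ± 35.7 against 146 ± 75.2 with overlapping libraries. The score of lipid-loaded macrophages was 7.02 ± 0.64 against 7.66 ± 0.43 there, and set against it Cd5l was 1.07 log2 units lower in EKO/hA-I, in place of 1.74 with the core score. At equal diet and time, the part of the EKO/hA-I minus EKO difference beyond the core score was -4.23 on WD and -4.13 on chow at 22 weeks, and -1.74 on WD and -1.34 on chow at 6 weeks. For EKO minus WT the part beyond the score was 4.75 on chow and 3.80 on WD at 22 weeks. At 6 weeks it was 3.07 on WD and 1.76 on chow. Each of these parts takes 1 unit of log2 Cd5l per unit of score. At the slope of 2.30 those beyond the core score at 22 weeks would be smaller in size. For EKO minus WT on WD at 22 weeks Cd5l differed by 7.11 and the score by 3.31. At the slope of 2.30 the part beyond the score would there change sign, so that excess depends on the slope taken.

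**Figure D3:**
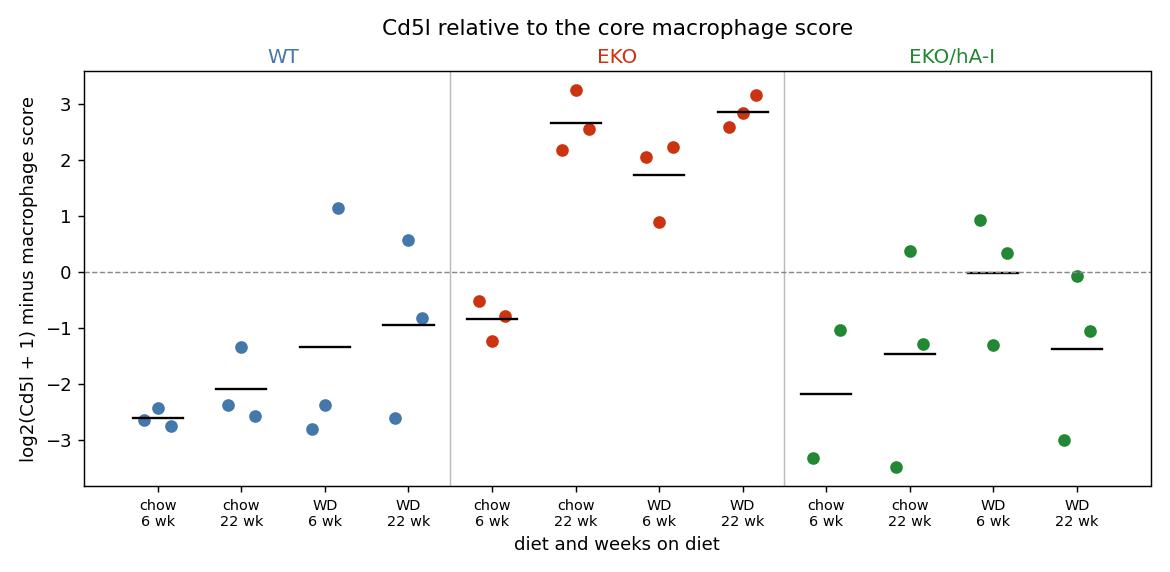
log2(Cd5l + 1) minus the core macrophage score in each library (points) by group, with the mean as a bar. EKO WD 22 weeks (2.85), EKO chow 22 weeks (2.65) and EKO WD 6 weeks (1.72) lie above 0 and the means of the other 9 groups lie below it.

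The genes whose levels followed Cd5l most closely over the 35 libraries were picked as the 10 with the highest r among 13659 genes with a mean log2 value of at least 1, of which 18 passed 0.9 and 164 passed 0.8. Of these 10, 6 are on the list of lipid-loaded TREM2 macrophages and 1, Ctss, on that of core macrophages. Gpnmb, a transmembrane glycoprotein of lipid-laden macrophages, led with 0.956. It was followed by Atp6v0d2 (0.953), a subunit of the proton pump of lysosomes, and Clec7a (0.950), the beta-glucan receptor dectin-1. Next stood Mmp12 (0.942), the macrophage elastase, Lgals3 (0.933), the lectin galectin-3, and Trem2 (0.932), the lipid-sensing receptor. Hk3 (0.927), a hexokinase of myeloid cells, Ctss (0.925), the lysosomal protease cathepsin S, Itgax (0.918), the integrin CD11c, and Stra6l (0.915) completed the 10. On deviations from group means the first 5 were Gpnmb (0.793), Atp6v0d2 (0.792), Clec7a (0.766), Ctss (0.761) and Lgals3 (0.760). These coefficients pool the deviations of all groups, and genotypes were not taken apart for single genes. The lowest coefficients belonged to 1700029J07Rik (-0.782), Nsmaf (-0.773) and Pnisr (-0.772). RefSeq gave promoter windows for 9 of the 10 genes, and those of 5 of them (Clec7a, Mmp12, Trem2, Hk3 and Ctss) held GAGGAA on either strand, a run of letters present in 28.3% of all windows.

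The closest partners and Cd5l did not have the same span. EKO minus WT on WD at 22 weeks was 6.46 ± 0.77 for Gpnmb, 6.79 ± 0.81 for Mmp12 and 6.35 ± 0.69 for Atp6v0d2, beside 7.11 for Cd5l. The EKO/hA-I minus EKO difference there was -5.00 ± 0.77, -5.40 ± 0.81 and -5.27 ± 0.69 for the same 3 genes, beside -6.34. In EKO/hA-I on chow at 22 weeks they parted: Gpnmb was 30.3, 30.8 and 31.7 in the libraries in which Cd5l was 0.701, 28.9 and 8.20. Trem2 there was 2.51, 2.40 and 1.92, so neither gene followed the spread of Cd5l.

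Other genes were tested with limma over 14157 genes in 6 comparisons, with Benjamini-Hochberg adjusted p under 0.05 as the call, and each gene list below is read from that fit. Of tested genes, 14.8% were higher and 7.20% lower in EKO minus WT, WD 22 weeks, called the knockout contrast below, 7.35% and 7.94% on chow at 22 weeks, and 3.94% and 1.50% on WD at 6 weeks. For EKO/hA-I minus EKO, WD 22 weeks, called the transgene contrast below, 5.96% were higher and 12.9% lower. WD against chow in EKO at 22 weeks (diet, below) gave 13.9% higher and 4.80% lower, and 22 against 6 weeks in EKO on WD (time, below) gave 10.5% and 2.97%. On chow at 22 weeks and on WD at 6 weeks the fit of the compared groups alone called 11 and 1 genes in place of 2165 and 770, so counts in these comparisons rest on the spread pooled over all 12 groups. In that fit no list below had a call in these 2 comparisons other than the 5 genes of lipid-loaded macrophages on chow given below, while between 0 and 18 genes of a list passed at an unadjusted p under 0.05. The median difference of all tested genes lay between -0.02 and 0.03 in the 6 comparisons. Cd5l is in none of the list counts, and 4 of the comparisons share the EKO WD 22-week libraries. Lists and members were chosen with such results known.

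Core macrophage genes were called most often in the comparisons that hold the EKO WD 22-week libraries. All 20 were higher in the knockout contrast (median difference 3.37), 18 on chow at 22 weeks (2.04) and 11 on WD at 6 weeks (1.32), and all 20 were lower in the transgene contrast (-2.08). For diet 20 were higher and for time 19 (medians 2.12 and 2.45). Cd68, a lysosomal glycoprotein, was 16.0 ± 7.28 in WT and 448 ± 124 in EKO on WD at 22 weeks, a difference of 4.77 ± 0.45 (limma adjusted p 7.5e-09). Tyrobp, the adaptor of TREM2, differed by 3.83 ± 0.36 (7e-09) and Adgre1 (F4/80) by 3.03 ± 0.41 (2.6e-06). Csf1r, the receptor for the macrophage growth factor CSF1, differed by 1.83 ± 0.28 (1.9e-05). The difference of Cd5l was larger than that of each of the 20 in 5 of the 6 comparisons; for diet, 6 of the 20 exceeded it. Fitted by limma on the compared groups alone, 0 of 20 passed on chow at 22 weeks and 0 on WD at 6 weeks (18 and 17 at an unadjusted p under 0.05). Without EKO replicate 1 the count on WD at 6 weeks was 0 (15 at an unadjusted p under 0.05), and without WT replicate 1 it was 1; terms for skeletal muscle and brown adipocyte markers gave 4.

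Genes of lipid-loaded TREM2 macrophages also rose, 12 of 16 in the knockout contrast (median 3.11), 12 on chow at 22 weeks (1.23) and 8 on WD at 6 weeks (1.06). In the transgene contrast 13 fell (-2.98), and 13 rose for diet (2.44) and 12 for time (2.52). Trem2 was 5.99 ± 4.51 in WT, 238 ± 57.8 in EKO and 14.6 ± 12.5 in EKO/hA-I on WD at 22 weeks. Its differences were 5.27 ± 0.60 (limma adjusted p 1.6e-07) and -4.28 ± 0.60 (8.3e-06). The lysosomal proteases Ctsl and Ctsd rose by 3.47 ± 0.24 (1.9e-10) and 2.48 ± 0.20 (7.8e-10), and Soat1, which esterifies cholesterol for storage, by 2.48 ± 0.26 (5.5e-08). In the limma fit of the compared groups alone the list had 5 calls on chow and 0 on WD at 6 weeks (9 at an unadjusted p under 0.05). On WD at 6 weeks it had 0 without WT replicate 1 and 0 without EKO replicate 1 (8 unadjusted in each), and on chow 8 without EKO replicate 1.

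Markers of resident macrophages had smaller differences. Of 15 genes of resident adventitial macrophages 3 were higher in the knockout contrast (median 0.34): Stab1 (1.31 ± 0.25, limma adjusted p 0.0003), Folr2 (1.64 ± 0.33, 0.00046) and Mrc1 (1.25 ± 0.33, 0.0069), all endocytic receptors. In the transgene contrast 3 of the 15 were higher and 1 lower (median 0.19), with Timd4, a phosphatidylserine receptor, at 1.18 ± 0.39 (0.036), Cd163, the haemoglobin scavenger receptor, at 1.09 ± 0.35 (0.03) and Folr2 at -0.93 ± 0.33 (0.046). Those 3 calls were each lost in at least 5 of the alternatives. On chow at 22 weeks 6 of 15 were higher, and 2 without EKO replicate 1. On WD at 6 weeks 2 were higher, and 0 in limma without WT replicate 1 or EKO replicate 1 (5 and 8 at an unadjusted p under 0.05) or with terms for skeletal muscle and brown adipocyte markers (10). For diet 3 were higher, and 0 without EKO chow replicate 2 or 3 (5 and 3 unadjusted). For time 2 were higher, and 1 without any of the 6 libraries.

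Markers of liver and spleen macrophages, well-known sources of Cd5l, were mostly low or not called. Clec4f and Spic were not analysed here. Marco, a scavenger receptor of splenic and lymphoid macrophages, was at most 1.20 in the 24 WT and EKO libraries, and its EKO minus WT difference on WD at 22 weeks was -0.03 ± 0.90 (limma adjusted p 0.99). Vsig4, the complement receptor of Kupffer cells, differed by 0.77 ± 0.30 (0.069). Of the 9 tested genes of that list 3 were higher there (median 0.26), Hmox1 (haem oxygenase, 2.97 ± 0.22, 4.6e-10), Clec1b (1.37 ± 0.34, 0.0039) and Siglec1 (1.88 ± 0.50, 0.0064). In the other 5 comparisons at most 2 were higher and at most 1 lower. Alb, the liver's main secreted protein, was between 0 and 102.4 over the libraries. It was at 1.77, 0 and 0.107 in the 3 EKO WD 22-week libraries, whose Cd5l was the highest. Of 7 tested liver genes 1 was higher in the knockout contrast (median 0.03). The 4 liver genes with a mean log2 value of at least 1 had r with Cd5l from -0.42 (Alb) to 0.25 (Ahsg).

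Among known regulators of Cd5l, Spi1, which encodes PU.1, rose by 3.28 ± 0.33 (limma adjusted p 2.4e-08) in the knockout contrast. It passed in the other 5 comparisons too, but on WD at 6 weeks (1.29 ± 0.33, limma adjusted p 0.023) the call was lost without WT replicate 1 (0.13), WT replicate 2 (0.077) or EKO replicate 1 (0.16) and with terms for skeletal muscle and brown adipocyte markers (0.057). In the fit of the compared groups alone its limma adjusted p was 0.089 there and 0.13 on chow at 22 weeks. Nr1h3, which encodes LXR alpha, was 46.8 ± 4.60 in WT and 83.4 ± 10.1 in EKO on WD at 22 weeks (0.82 ± 0.28, 0.037, a call lost when any of 5 of the 6 libraries was left out). In EKO/hA-I it was 96.4 ± 4.89, a difference of 0.21 ± 0.28 from EKO (0.65).

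Other transcripts that LXR activates gave a partial match. In the knockout contrast 10 of 16 tested were higher and 1 lower (median 0.89), among them the cholesterol exporters Abcg1 (4.07 ± 0.34, limma adjusted p 1.6e-09) and Abca1 (2.39 ± 0.36, 1.4e-05) and the phospholipid transfer protein Pltp (2.52 ± 0.24, 7.2e-09). The lower one, named after its value was seen, was Apoc1, a neighbour of Apoe. In the transgene contrast 6 were lower (median -0.07), Abcg1 by 2.15 ± 0.34 on the log2 scale (5.1e-05). On chow at 22 weeks 5 were higher and 1 lower, on WD at 6 weeks 2 and 1, for diet 8 and for time 6 were higher. Leaving out 1 library gave 7 or 8 higher in place of 10 in the knockout contrast. The 5 on chow became 2 without WT replicate 1, WT replicate 3, EKO replicate 1 or EKO replicate 3. The 2 on WD at 6 weeks became 0 in limma without WT replicate 1 or EKO replicate 1 (5 and 4 unadjusted).

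Of the protein's partners, IgM genes passed in 2 of the 6 comparisons. Ighm, the IgM heavy chain, rose by 3.09 ± 0.69 from 6 to 22 weeks in EKO on WD (limma adjusted p 0.0024) and by 2.78 ± 0.69 in EKO against WT on chow at 22 weeks (0.0079). On WD at 22 weeks the EKO libraries had 122.5, 913.6 and 118.4 and the WT libraries 160.1, 62.8 and 39.6, which overlapped (1.67 ± 0.69, 0.086). Of the 6 tested genes 3 (Ighm, Igkc and the joining chain Jchain) passed in each of those first 2 comparisons and 0 in the other 4 (between 0 and 2 at an unadjusted p under 0.05). Without EKO WD 22-week replicate 2 the time comparison had 1. Without EKO chow 22-week replicate 1 the chow comparison had 1, with Ighm at a limma adjusted p of 0.064, and the compared groups alone gave 0 (4 at an unadjusted p under 0.05), with Ighm at 0.063. Lymphocyte markers gave at most 1 call of 14.

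The receptor and the enzyme through which the protein acts on fat cells were not called. Cd36, the fatty acid receptor through which it enters, differed by 0.23 ± 0.41 (limma adjusted p 0.75) and Fasn, fatty acid synthase, by -0.29 ± 0.66 (0.81) in the knockout contrast, and neither passed in any of the 6 comparisons. Across libraries r with Cd5l was 0.03 for Cd36 and 0.04 for Fasn. Of 13 genes of fat synthesis and storage 0 passed there in limma (0 at an unadjusted p under 0.05), 2 were higher on chow at 22 weeks, 3 were higher in the transgene contrast and 1 was lower for diet. In limma the 2 on chow became 0 without WT replicate 1 or 3 or EKO replicate 1 or 3 (1 to 4 at an unadjusted p under 0.05), and the 3 became 0 without EKO replicate 1 or 3 or EKO/hA-I replicate 1 or 2 (1 to 9 unadjusted). Brown adipocyte scores ran from 8.06 to 8.36 with the transgene and from 6.49 to 7.69 without it in the transgene contrast, and the part of attached fat in these values was not tested.

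Relatives of Cd5l in the SRCR family showed several patterns. Msr1, the class A scavenger receptor, rose by 4.49 ± 0.40 (limma adjusted p 3.8e-09) in the knockout contrast and was lower by 3.17 in the transgene contrast (-3.17 ± 0.40, 2.1e-06). Cfi, complement factor I, rose by 2.49 ± 0.27 (7.2e-08) and fell by 2.17 ± 0.27 on the log2 scale (1.6e-06). Cd163 and Marco, also SRCR receptors, did not pass in the first. In all, 7 of 17 tested were higher in the first comparison (median 0.59), 7 were lower and 1 higher in the transgene contrast (-0.46), and 3 were higher on chow at 22 weeks, 6 on WD at 6 weeks, 6 for diet and 5 for time, with 1 lower for time. With terms for skeletal muscle and brown adipocyte markers in the fit, 3 were lower in EKO/hA-I. The count of 6 on WD at 6 weeks was 3 with those terms, 2 without EKO replicate 1, 3 without WT replicate 1 and 3 without WT replicate 2.

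Genes of apoptosis and of the uptake of dead cells, the processes that give AIM its name, were called in the knockout contrast for 16 of 24 (median 0.58). They included both survival and death genes: Bcl2a1b, a survival gene of leukocytes, at 3.95 ± 0.33 (limma adjusted p 1.3e-09), Bcl2l11, which encodes the death activator BIM, at 1.71 ± 0.22 (8.9e-07), Bid at 1.65 ± 0.24 (1.1e-05) and Casp8 at 1.02 ± 0.15 (1.1e-05). Bcl2a1 genes are near-identical copies whose reads cannot be assigned with certainty. In the transgene contrast 11 were lower (median -0.48), 5 with terms for skeletal muscle and brown adipocyte markers in the fit and 7 without EKO/hA-I replicate 2. Chow at 22 weeks gave 3 higher and 3 lower, WD at 6 weeks 1 and 1, diet 16 higher and time 13 higher. Without 1 library the count of 16 in the knockout contrast was between 10 (without EKO replicate 3) and 14, and that for diet between 10 (without EKO WD replicate 3) and 15. For time the compared groups alone gave 8 in place of 13.

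**Figure D4:**
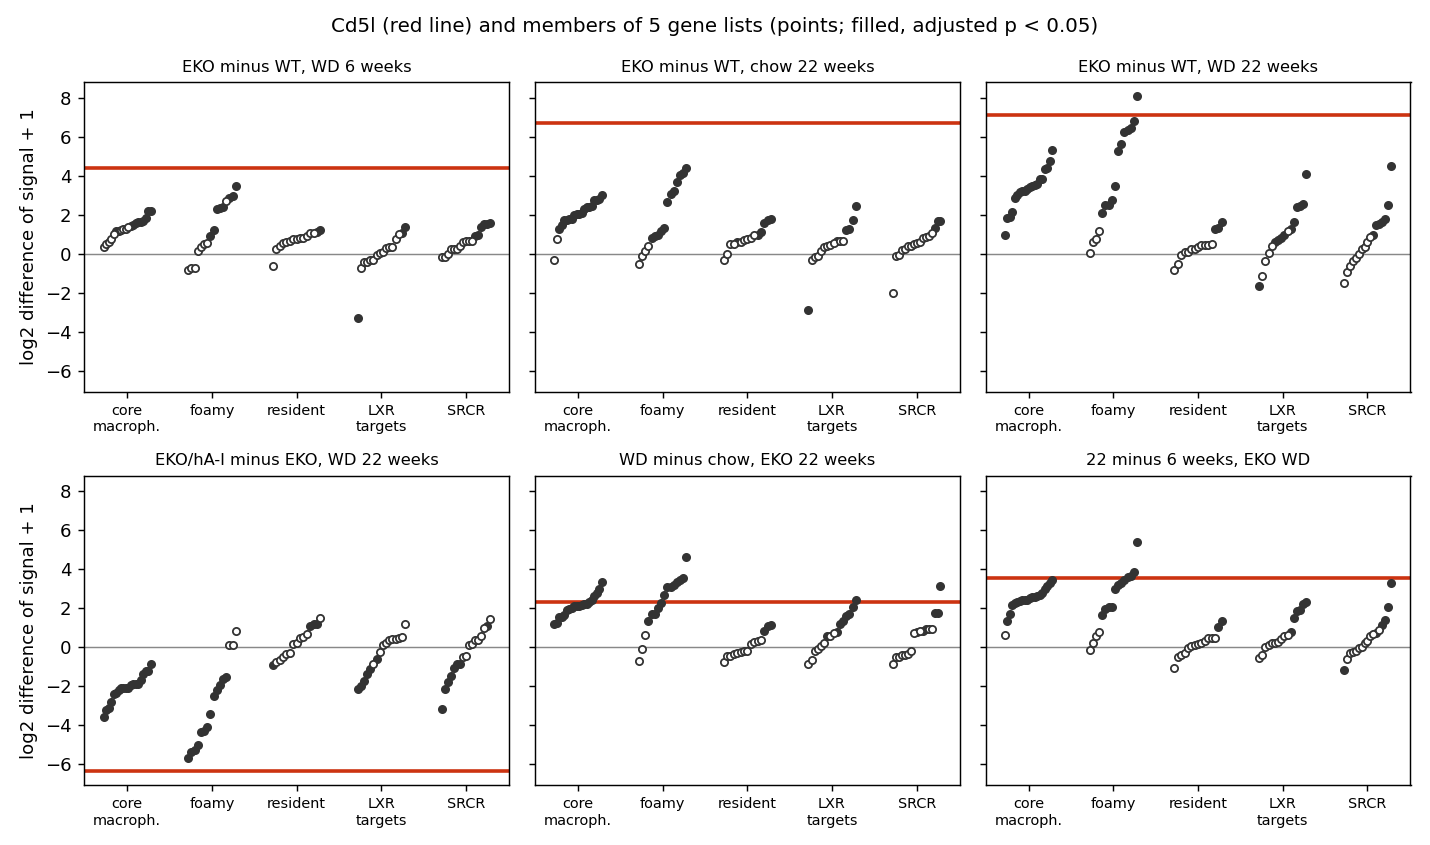
Difference of log2(signal + 1) of each gene of 5 lists (points, filled where the limma adjusted p is under 0.05) in 6 comparisons, with the value of Cd5l as a red line. In EKO against WT on chow at 22 weeks Cd5l, at 6.71, lies above every point, and for diet in EKO at 22 weeks, at 2.31, it lies among the macrophage genes.

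Markers of attached tissue moved with some of the same contrasts. In the transgene contrast 11 of 13 skeletal muscle genes were higher (median 4.03), with scores of 5.81 to 7.83 against 1.40 to 3.22, and 3 of 9 erythroid genes were lower; their part in the values above was not tested. For time, within EKO on WD, 5 of 10 smooth muscle genes were lower (median -1.29). In EKO against WT 4 of 10 smooth muscle genes were lower on WD at 22 weeks (median -1.26). On chow at 22 weeks 8 of 9 erythroid genes were higher in EKO than in WT (median 2.30) and 3 of 9 cardiac muscle genes lower (median -3.18). Of 10 adventitial fibroblast genes 8 were higher on WD at 6 weeks, 4 on chow at 22 weeks, 3 on WD at 22 weeks and 4 for diet, and 3 were lower in the transgene contrast. Of 10 endothelial genes 4 were higher on WD at 22 weeks. Their part was not tested either. With terms for skeletal muscle and brown adipocyte markers in the fit, the Cd5l difference was -5.58 in place of -6.34 for EKO/hA-I minus EKO, and 6.92 in place of 7.11 for EKO minus WT on WD at 22 weeks.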

How the data were processed

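Aortic total RNA of 35 mice was measured in 12 groups of genotype, diet and weeks. The authors deposited 1 table of normalised signal for 14174 genes; the submitters' processing notes list Bowtie 0.12.2, Bowtie2 and RSEM and the builds mm8 and mm9 without saying what each was for, and the counting and scaling are not given in the sources used here. Of the low values 71.59 to 82.06% lay within 0.02 reads of a whole number, so counts were not recovered and no count test was run.

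Values were taken as log2(value + 1), which understates the differences of low genes. Genes at 1 or more in at least 3 libraries were kept (14157, with 17 removed), and limma 3.58.1 in R 4.3.3 (trend and robust) fitted all 12 groups at once, two-sided, with Benjamini-Hochberg adjustment within a comparison. Code was tested on simulated data. Cd5l was not tested. Groups follow the titles. Cd5l and the gene lists were chosen with earlier results of these data known. Named are Cd5l, the genes most and least alike to it, up to 6 members of each list with the smallest p on WD at 22 weeks, and fixed regulators and markers; Spp1 is also named because it ranked ahead of Cd5l. The regulators are given in part; the rest of that list is not reported here. Alternatives were other pseudocounts, median-ratio rescaling, no filter, a replicate block, terms for Y-linked transcripts or attached tissue, the compared groups alone and leaving out each library.

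The titles number the replicates. Same-numbered libraries deviated together in every pair only for 22 against 6 weeks in EKO on WD (r of 0.12 to 0.44 across genes), and nothing in the labels says what the number marks.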

Additional observations from a re-analysis of the deposited data

How the results depend on the processing

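The sign of the Cd5l difference was the same in all 6 tested comparisons under every alternative. Leaving out 1 library gave 6.31 to 8.05 (EKO minus WT, WD 22 weeks), 6.16 to 7.23 (chow 22 weeks), 3.63 to 5.86 (WD 6 weeks), -6.91 to -5.31 (EKO/hA-I minus EKO), 2.07 to 2.46 (diet) and 3.06 to 3.90 (time). With a pseudocount of 5 the chow value was 5.43 in place of 6.71. Alternatives with the score of lipid-loaded macrophages were chosen after seeing the data: Cd5l minus that score was -2.74 in EKO chow 6 weeks, 0.44 in EKO chow 22 weeks, -0.62 in EKO WD 6 weeks, 0.52 in EKO WD 22 weeks and -2.92 in EKO/hA-I WD 22 weeks, so that the EKO WD 6-week value changed sign.

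Counts of called genes depended on the fit. They were 3114, 2165, 770, 2668, 2644 and 1903 in the 6 comparisons. The compared groups alone, with fewer libraries to estimate the spread, gave 11 on chow at 22 weeks, 1 on WD at 6 weeks and 1670 for diet. Terms for brown adipocyte and skeletal muscle markers gave 232 on WD at 6 weeks, 1231 for EKO/hA-I and 2965 for time, and turned Cidea in EKO/hA-I minus EKO from 1.24 to -0.050; the cause was not tested. Leaving out 1 library gave 745 to 2492 on chow at 22 weeks, 63 to 1127 on WD at 6 weeks, 1415 to 2969 for EKO/hA-I, 1411 to 2772 for diet, 1221 to 1756 for time and 2294 to 2868 for EKO minus WT on WD at 22 weeks. The lowest of these came without EKO chow 22-week replicate 1, EKO WD 6-week replicate 1, EKO WD 22-week replicate 1 (both for EKO/hA-I and for diet) and EKO WD 6-week replicate 3. A replicate block gave 3264, 2270, 870, 2808, 2730 and 2035, each within 1.5 times the count without it.

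Depth limits the low end: the lowest Cd5l value rests on 6 inferred reads, and ratios against WT or EKO/hA-I chow libraries are accordingly uncertain. Groups of 2 or 3 limit all spreads.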

Other observations

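Cd5l in EKO/hA-I aortas varied with Marco, the scavenger receptor of splenic and lymphoid macrophages, in some libraries in which Gpnmb was level. On chow at 22 weeks the libraries with Cd5l at 0.701, 28.9 and 8.20 had Marco at 0.643, 43.5 and 1.12, while Gpnmb was 30.3, 30.8 and 31.7. On chow at 6 weeks Cd5l was 1.95 and 8.89 and Marco 0.803 and 19.99, while Gpnmb was 46.2 and 42.2. Marco reached 14.1 in replicate 2 on WD at 22 weeks, whose Cd5l of 41.3 was the highest of its group, against 1.13 and 0.459 in the other libraries, where Cd5l was 3.57 and 34.8. On WD at 6 weeks the library with the highest Cd5l had the lowest Marco: Marco was 0.153, 0.858 and 5.31 where Cd5l was 87.7, 19.98 and 34.1 and Gpnmb 631, 100 and 144. In the 24 WT and EKO libraries Marco was never above 1.20. The pattern was noticed in the data, rests on single libraries and was not tested.

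Timd4, a marker of resident macrophages of serous cavities, adventitia and lymphoid organs, was also highest of all libraries, at 13.4, in EKO/hA-I WD 22 weeks replicate 2, where Ighm was 1858. The mean log2(value + 1) of the lymphocyte markers was highest of all libraries there too, at 5.24. It was 1.80 in replicate 1 and in replicate 3 of that group. The part of lymphoid tissue in these values was not tested.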
